A study of Rattus norvegicus with 24 samples.

Results

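1,2-Dichlorobenzene is a chlorinated solvent, a benzene ring that carries chlorine on adjacent carbons, and its effect on the rat liver was read from the 4 arrays labelled with that compound, of 24 arrays in the series. Each of these arrays set liver RNA of 1 male F344 rat (Cy3 dye) given 300 mg/kg/day of 1,2-dichlorobenzene in corn oil by gavage against a pool of liver RNA from rats given corn oil alone (Cy5 dye). The rats were 5 weeks old, and dosing at 5 ml/kg ran daily for 28 days. The other 20 arrays, 4 for each compound, were made in the same way for hexachloroethane (500 mg/kg/day), 1,2,3-trichloropropane (50 mg/kg/day), 1-amino-2-methylanthraquinone (150 mg/kg/day) and the herbicide monuron (250 mg/kg/day), all in corn oil, and for tetracycline hydrochloride (1000 mg/kg/day in water), each against a vehicle pool. The submitters' design text counts 1,2-dichlorobenzene and tetracycline hydrochloride as non-carcinogens and the remaining 4 compounds as carcinogens. All rats were males of 1 inbred strain, and each compound was given at 1 dose and read at 1 time.

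The measurement is the log2 ratio of a gene's signal in a rat given 1,2-dichlorobenzene over the vehicle pool, so a ratio of 1 is a doubling of the signal. The pool of 4 control rats counts as 1 sample, and the p-values below reflect only the spread between treated rats. No array had its dyes swapped, so a dye preference of a probe remains in a ratio against vehicle. It cancels in a difference between compounds as far as it is alike on all arrays. Each compound lay on a slide of its own, and slide and compound cannot be told apart. Monuron was scanned on the same day as 1,2-dichlorobenzene, and the difference from monuron is therefore the value within that scan day.

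In total 11589 genes were tested, of which 4752 had a usable symbol. Between 64.1% and 66.4% of probes lay well above background in the 1,2-dichlorobenzene channel of the 4 arrays, and between 65.6% and 68.6% in the vehicle channel. Across genes, the log2 ratios of the 4 arrays correlated with each other at r = 0.78 to 0.91, over 6 pairs of arrays that share probes, slide and possibly the vehicle pool. All 10 hepatocyte markers, among them Alb and Hnf4a, lay well above background in both channels, as the label of liver requires.

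The liver clears a lipophilic chemical in steps. Cytochromes P450 add or expose an oxygen, transferases then couple glutathione, glucuronic acid or sulfate to the product, and transporters export it. In rodents 1,2-dichlorobenzene is oxidised by P450 enzymes to a reactive epoxide that glutathione traps. The factor Nrf2 raises glutathione-using and quinone-reducing enzymes when electrophiles react with its inhibitor Keap1, the aryl hydrocarbon (Ah) receptor controls P450 enzymes of family 1, and the nuclear receptors CAR and PXR control many of families 2 and 3.

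A gene was called changed at a Benjamini-Hochberg adjusted p under 0.05 in limma together with a change of at least 2-fold. Against vehicle 186 of 11589 genes (1.60%) were called, 90 higher (0.777%) and 96 lower (0.828%). When the fold was ignored, 5992 genes (51.7%) passed, 2909 upward (25.1%) and 3083 downward (26.6%), so most of the differences that exceeded the spread between rats were smaller than 2-fold. Of the called genes, 109 had a usable symbol, 55 higher and 54 lower, and the members described below come from these. In 185 of the 186 called genes all 4 rats lay on the same side of vehicle. The size of the change differed between rats. Rat 4 had the smallest change in 66 of the 90 genes called higher and in 48 of the 96 called lower, and the median increase was 1.09 in rat 4, with 1.63, 1.62 and 1.40 in rats 1, 2 and 3.

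The largest changes were in glutathione transferases, aldehyde and quinone reductases, a glucuronosyltransferase and, downward, in a methyltransferase, an aminotransferase and a P450 enzyme. The plot of the leading genes in each rat shows every rat on the same side of 0 for each of them, which the choice of these genes required. Among the 15 largest named increases, rat 4 had the smallest ratio in 15 of 15. Among the 15 largest decreases it had the smallest change in 8 of 15.

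**Figure D1:**
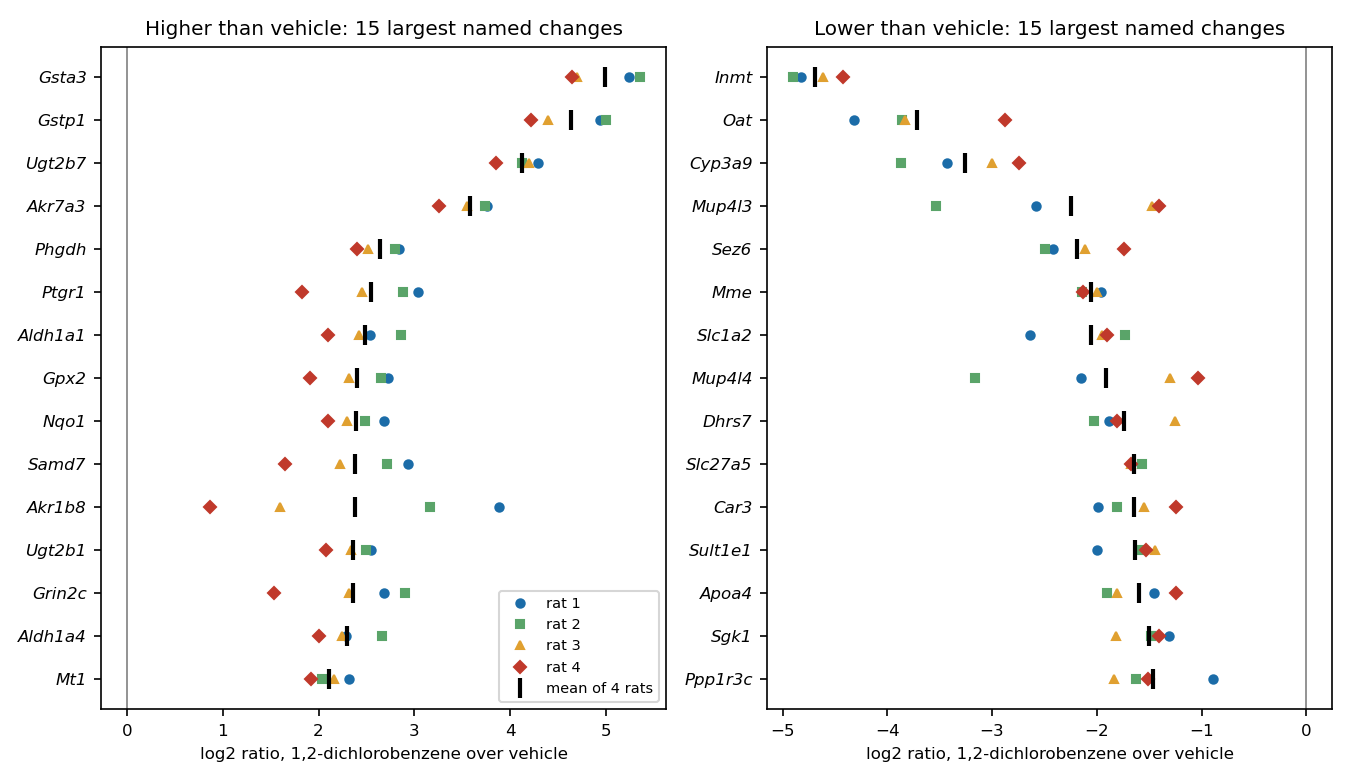
Log2 ratio of 1,2-dichlorobenzene over vehicle (horizontal axis) for the 15 named genes that rose most and the 15 that fell most (rows). Symbols stand for the 4 rats and black ticks for their mean; the means run between 4.99 for Gsta3 and 2.11 for Mt1 on the left, and between -4.69 for Inmt and -1.47 for Ppp1r3c on the right.

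Nrf2 targets were the list with the most increases by count, though the median of the shorter Ah receptor list, given below, was higher. Of 31 measured, 11 rose and none fell, with a median log2 ratio of 0.71 against -0.0098 over all 11589 genes. Without the fold limit 24 passed upward and 1 downward, the transferase Gstm3. Glutathione transferases and the enzymes of glutathione synthesis had 4 increases and no decrease among 23 measured, with a median log2 ratio of 0.44. That median was -0.18 when arrays were centred on their median instead of scaled by loess, whereas the Nrf2 median kept its sign at 0.21.

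Promoters are printed first for increased genes whose start sites carry a core that matches a known response element, so that the letters can be read beside the values. They are the 250 bases before the RefSeq start site in GRCr8, all on the minus strand, with the core in capitals. For Gstp1 (chr1:210769706-210769955), Gpx2 (chr6:101230034-101230283) and Me1 (chr8:96540245-96540494) the core is TGACNNNGC, the antioxidant response element bound by Nrf2, searched on both strands.
Gstp1: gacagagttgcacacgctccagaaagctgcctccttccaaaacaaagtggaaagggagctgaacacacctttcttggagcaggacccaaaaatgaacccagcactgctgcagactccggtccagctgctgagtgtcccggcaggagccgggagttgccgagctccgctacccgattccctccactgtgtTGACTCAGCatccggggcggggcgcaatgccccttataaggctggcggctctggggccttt
Gpx2: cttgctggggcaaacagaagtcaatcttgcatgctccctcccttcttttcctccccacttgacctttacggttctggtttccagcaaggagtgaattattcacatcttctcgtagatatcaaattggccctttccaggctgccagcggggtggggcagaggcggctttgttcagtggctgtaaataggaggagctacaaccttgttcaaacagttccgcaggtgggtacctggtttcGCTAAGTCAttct
Me1: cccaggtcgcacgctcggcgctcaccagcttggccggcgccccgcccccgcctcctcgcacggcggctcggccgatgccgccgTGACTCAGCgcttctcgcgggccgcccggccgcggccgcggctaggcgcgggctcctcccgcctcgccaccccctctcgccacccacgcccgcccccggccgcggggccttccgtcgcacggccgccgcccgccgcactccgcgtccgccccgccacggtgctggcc
The core begins 61 bases before the start of Gstp1 and 167 bases before that of Me1 on the gene's own strand, and 13 bases before that of Gpx2 on the opposite strand. For the shares that follow, the core was searched over 300 bases, 250 before the start site and 50 after it. The same core was present in 12.2% of the 27457 promoters of the RefSeq table and in 14.9% of the 3822 promoters of tested genes. It was found in 9 of 41 promoters of genes called higher (22.0%) and in 8 of 41 of genes called lower (19.5%). Of the Nrf2 targets called higher, 4 of 9 with a promoter in the table held it (44.4%), and of all measured Nrf2 targets 9 of 27 (33.3%). These shares describe letters in a window and not binding, and 82 of the 109 called genes with a symbol (75.2%) had a promoter in the table.

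Gsta3, the rat alpha-class transferase known as Yc2 on the array design, had log2 ratios of 5.24, 5.36, 4.70 and 4.64 in rats 1 to 4. All 4 rats lay within a narrow range far above vehicle, a mean of 4.99 ± 0.37 (SD, n = 4) or 31.7-fold (limma adjusted p = 1.57e-11). Its 3 probes gave means of 3.33 to 4.99, and cross-signal from other alpha-class transferases was not tested.

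Gstp1, the pi-class transferase long used as a marker of preneoplastic foci in rat liver, had log2 ratios of 4.93, 5.00, 4.39 and 4.21. The 4 rats were again close to one another, a 24.8-fold increase with a mean of 4.64 ± 0.39 (SD, n = 4, limma adjusted p = 1.63e-15). Under the other compounds the mean ratio of Gstp1 was 2.13 with 1,2,3-trichloropropane and between -0.28 and 0.35 with the remaining 4.

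The other transferase called was Gstt3, of the theta class, at 2.04, 2.32, 1.97 and 2.02 in the 4 rats. Gsr, which regenerates reduced glutathione, averaged 1.01 ± 0.20 (SD, n = 4), at the edge of the 2-fold limit. Its ratio was 0.35 when arrays were centred on their median and 0.92 without rat 1, not called in either case. The transferases Gsta5, Gstm1, Gsta1 and Gsta2 had means of 0.71, 0.61, 0.58 and 0.54, all under 2-fold, and all 4 were below 0 when arrays were centred on their median. The 2 subunits of glutamate-cysteine ligase, which makes the glutathione precursor, were also under 2-fold: Gclm averaged 0.78 ± 0.38 and Gclc 0.44 ± 0.11 (SD, n = 4).

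Among the remaining Nrf2 targets the reductases led. Akr7a3, an aldo-keto reductase that detoxifies aflatoxin dialdehyde, had log2 ratios of 3.76, 3.74, 3.55 and 3.26, a 12.0-fold increase (limma adjusted p = 1.01e-13). Nqo1, the quinone reductase, had 2.69, 2.48, 2.30 and 2.10, a 5.25-fold increase (limma adjusted p = 1.01e-13). Both genes were high in all 4 rats, with rat 4 the lowest. Akr1b8, another aldo-keto reductase, had 3.88, 3.17, 1.60 and 0.86, so that the rats spread widely around a mean of 2.38 ± 1.39 (SD, n = 4).

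Gpx2, a glutathione peroxidase best known from the gut, had 2.72, 2.66, 2.32 and 1.91. Its brightest probe gave this 5.29-fold increase while its other probe gave a mean of 0.235, and the cause of that difference was not tested. Me1, the malic enzyme that supplies NADPH, had 1.51, 1.32, 1.36 and 1.70. Rat 4 was the highest for Me1, unlike most increases. Ptgr1, which reduces alkenals and prostaglandins and stood on no list, had 3.04, 2.88, 2.45 and 1.82, a 5.85-fold increase. Samd7, also on no list, had 2.94, 2.71, 2.23 and 1.65, a 5.21-fold increase.

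Aldehyde dehydrogenases, alcohol dehydrogenases and aldo-keto reductases had 4 increases and 2 decreases among 21 measured, with a median log2 ratio of 0.14. Aldh1a1, a retinal and xenobiotic aldehyde dehydrogenase, rose 5.58-fold, and Aldh1a4, named as on the array design, rose 4.92-fold. Aldh1b1, a mitochondrial aldehyde dehydrogenase, fell by 1.13 on the log2 scale, but was not called without background correction (-0.79) or with its probes averaged (-0.83). Some known Nrf2 targets were near 0: Hmox1, haem oxygenase, averaged 0.039 ± 0.28, Srxn1, sulfiredoxin, 0.074 ± 0.15, and Txnrd1, thioredoxin reductase, -0.019 ± 0.12 (SD, n = 4).

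Conjugating enzymes moved in both directions. Of 34 measured, 7 rose and 3 fell, with a median log2 ratio of 0.17 that was below 0 when arrays were centred on their median. Under that centring the counts were 2 higher and 8 lower, and 4 rose without background correction or without rat 2. The glucuronosyltransferase Ugt2b7 had log2 ratios of 4.29, 4.12, 4.20 and 3.86 in the 4 rats. These values lay close together at a mean of 4.12 ± 0.19 (SD, n = 4), a 17.4-fold increase (limma adjusted p = 3.91e-16). Under the other compounds Ugt2b7 averaged 2.04 with 1,2,3-trichloropropane and between -0.06 and 0.17 with the remaining 4. Ugt2b1 rose 5.15-fold, and Ugt2a1, Ugt1a2 and Ugt1a6 were called at 2.23-fold, 2.03-fold and 2.00-fold. Ugt2a1 was not called under median centring (0.92), without background correction or with its probes averaged.

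Ugt1a2 and Ugt1a6 share exons within the Ugt1a locus, and the probes of Ugt1a6 ranged from 0.59 to 2.21. Both lost the call in 6 of 13 alternatives tried, with ratios of 0.50 for Ugt1a2 and 0.42 for Ugt1a6 under median centring. Ephx1, the microsomal epoxide hydrolase, rose 2.17-fold, and its ratio was 0.21 under median centring. Sult2a6, a sulfotransferase of hydroxysteroids, was called at 2.05-fold, with 0.54 under median centring and 0.91 without rat 2, neither called.

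Inmt, an N-methyltransferase of indolethylamines, showed the deepest decrease of any named gene. Its log2 ratios were -4.82, -4.90, -4.62 and -4.42 in the 4 rats, so its signal fell 25.8-fold with little spread (mean -4.69 ± 0.22, SD, n = 4, limma adjusted p = 3.20e-10). The oestrogen sulfotransferase Sult1e1 had -2.0, -1.59, -1.44 and -1.53 and fell 3.11-fold. The carboxylesterase Ces1d had -1.32, -1.23, -1.14 and -1.50 and fell 2.46-fold, and cross-signal from related esterases was not tested.

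P450 enzymes did not move as a block. Of 26 measured members of families 2 and 3 with their redox partners, 2 rose and 2 fell, with a median log2 ratio of 0.034. Under median centring 0 rose and 6 fell. Cyp3a9, which the array design calls by an older symbol, had log2 ratios of -3.43, -3.87, -3.0 and -2.75. All 4 rats were far below vehicle, a 9.59-fold decrease (limma adjusted p = 8.14e-10). Cyp2c11, the main P450 of male rat liver, had -1.56, -1.83, -1.04 and -0.75 and fell 2.46-fold. Cyp3a23-3a1 and Cyp3a2 averaged -0.83 and -0.49, under 2-fold.

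The 2 increases were Cyp2c37 and Cyp2c6v1, with mean ratios of 1.14 and 1.10 and rat 2 above the others in both. They were no longer called under median centring, with 0.28 and 0.23, and the 5 probes named Cyp2c37 ranged from -0.57 to 1.14. Cyp2e1, the enzyme of small solvents, averaged 0.23 ± 0.17 (SD, n = 4, limma adjusted p = 0.121), and was -0.69 under median centring.

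Targets of CAR and PXR had 7 increases and 1 decrease among 25 measured, with a median log2 ratio of 0.54. The 7 were Aldh1a1, Ugt2b1, Abcc3, Cyp2c37, Ephx1, Cyp2c6v1 and Ugt1a6, and the decrease was Cyp3a9. The lists share members, and Aldh1a1, Abcc3 and Ephx1 also count among the Nrf2 targets. Under median centring the list had 2 increases and a median below 0. Abcc3, an exporter of glucuronides, was the 1 call among 20 drug transporters, at 1.38, 1.42, 1.15 and 1.07. Its ratio was 0.92 under median centring, and its other probe gave 2.74.

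Ah receptor targets had 4 increases and 1 decrease among 9 measured, with a median log2 ratio of 0.84. That median was 1.09 with 1-amino-2-methylanthraquinone, 0.986 with monuron and between 0.0905 and 0.449 with the remaining compounds. The family 1 P450 enzymes of the list went opposite ways with 1,2-dichlorobenzene. The increases were Nqo1, Cyp1a1, Fmo5 and Ugt1a6, of which Nqo1 also counts among the Nrf2 targets and Ugt1a6 among those of CAR and PXR. The increases numbered 2 without background correction. Cyp1a1 had log2 ratios of 2.28, 2.88, 1.01 and 1.46 in the 4 rats, with the vehicle channel below background on all 4 arrays. On its brightest probe the mean level after background correction was therefore at least 3.17-fold higher with 1,2-dichlorobenzene (limma adjusted p = 4.82e-05). This limit does not cover each rat, the other probe or signals without background correction. That limit was measured against the dimmest signal that counts as above background. Normalised log2 signals were 8.37 with 1,2-dichlorobenzene and 6.47 in vehicle. Without background correction the ratio was 0.82 and not called. The other probe of Cyp1a1 gave a mean log2 ratio of 1.065.

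Cyp1a2, which hepatocytes around the central vein express at rest, had -1.58, -1.81, -0.62 and -0.76. The rats formed a lower pair and a higher pair, all below vehicle, and the 2.29-fold decrease (limma adjusted p = 4.65e-07) was lost when rat 2 was left out, with a mean of -0.99. Fmo5, a flavin monooxygenase, rose 3.11-fold. Ahr itself averaged -0.014 ± 0.11 and its partner Arnt -0.050 ± 0.064 (SD, n = 4).

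Enzymes and a hormone of the amino acid response rose. In the list of amino acid and unfolded protein response genes 4 of 21 measured genes rose and none fell, with a median log2 ratio of 0.20 that was below 0 under median centring. Phgdh, the first enzyme of serine synthesis, had 2.84, 2.80, 2.52 and 2.40, a 6.23-fold increase shared closely by the 4 rats (limma adjusted p = 4.25e-08). Asns, asparagine synthetase, had 1.73, 1.07, 1.25 and 1.44, a 2.59-fold increase. Psat1, the next enzyme of serine synthesis, averaged 1.09 ± 0.30 (SD, n = 4), but its probes ranged from 0.22 to 1.09.

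The fasting and stress hormone Fgf21 had 1.85, 0.48, 1.71 and 1.57, with rat 2 well below the others (limma adjusted p = 0.00107). Without background correction Psat1 and Fgf21 were not called, with ratios of 0.54 and 0.89. The chaperone Hspa5 averaged 0.075 ± 0.13 and the stress factor Ddit3 0.020 ± 0.12 (SD, n = 4).

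Mt1, metallothionein 1, binds zinc and copper and is induced through the metal response element. It had log2 ratios of 2.31, 2.04, 2.17 and 1.92, a 4.32-fold increase with little spread between rats (limma adjusted p = 1.07e-06). It was the 1 increase among 22 measured immediate early and heat shock genes, and the phosphatase Dusp1 the 1 decrease, at -0.48, -1.01, -1.80 and -1.46, lost without rat 3. The promoter of Mt1 (chr19:10832976-10833225, GRCr8, minus strand, 250 bases before the RefSeq start) is shown because it holds 7 copies of the metal response core TGCNCNC, in capitals, on either strand.
Mt1: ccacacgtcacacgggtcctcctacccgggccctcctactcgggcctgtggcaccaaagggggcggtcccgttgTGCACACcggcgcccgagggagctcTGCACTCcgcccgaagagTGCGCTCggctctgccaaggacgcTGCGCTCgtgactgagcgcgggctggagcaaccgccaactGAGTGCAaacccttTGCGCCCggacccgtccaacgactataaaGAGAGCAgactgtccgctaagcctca
A single copy of this short core is common, present in 50.1% of 27457 promoters, searched over 300 bases with 50 after the start site. As many copies as in Mt1 stood in 27 of them (0.0983%). The Mt1 promoter also holds the antioxidant response core TGACNNNGC, left in lower case, beginning 101 bases before the start on the gene's own strand.

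Haem and iron genes had 1 increase and 1 decrease among 15 measured. Tfrc, the transferrin receptor that takes up iron, had 1.11, 1.36, 1.24 and 0.79, a 2.18-fold increase (limma adjusted p = 9.87e-07), with 0.71 under median centring and 0.95 with its probes averaged, neither called. Hp, haptoglobin, which binds free haemoglobin and is also an acute phase protein, had -1.34, -1.23, -1.23 and -1.12, and -0.92, not called, with the scanner ratio or the series table. Alas1, the rate-limiting enzyme of haem synthesis, had 0.49, 0.34, -0.72 and -0.61, with rats on both sides of vehicle (limma adjusted p = 0.72).

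Of 24 measured cell cycle genes 2 rose, Mcm6 and Mcm3, and none fell. Both encode subunits of the replicative helicase. Without the fold limit 15 passed upward and 2 downward, and the median log2 ratio was 0.59. Mcm6 had 1.54, 1.95, 1.75 and 0.74 and Mcm3 had 1.54, 1.86, 1.62 and 0.63. Pcna, the sliding clamp of DNA polymerase, averaged 0.94 ± 0.39 (SD, n = 4), just under 2-fold. Ccnd1, cyclin D1, went the other way at -0.93 ± 0.23 (SD, n = 4).

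Over the whole list the medians of rats 1 to 4 were 0.54, 1.01, 0.70 and -0.021, and rat 4 was lowest in 23 of 24 genes, as the plot of cell cycle genes by rat shows. Without rat 4, 7 of the 24 were called higher, and 6 were with the scanner ratio or the series table. Mcm6 exceeded the mean of the other 5 compounds by 1.09 (limma adjusted p = 0.000121). The list medians under the other compounds were between -0.16 and 0.25.

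**Figure D2:**
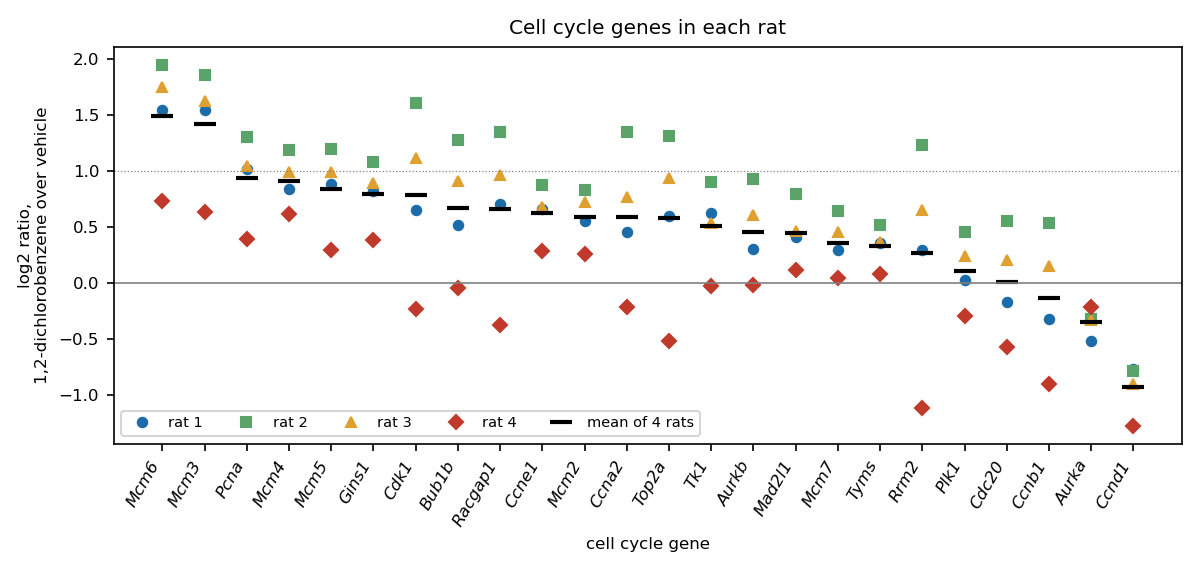
Log2 ratio of 1,2-dichlorobenzene over vehicle (vertical axis) for the 24 measured cell cycle genes, ordered by mean. Symbols stand for the 4 rats and ticks for their mean, with a dotted line at a doubling; rat 4 is lowest in 23 of the 24 genes, and the means of Mcm6 and Mcm3 lie above the dotted line.

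Decreases were found among genes of perivenous hepatocytes, the cells around the central vein. Of 16 measured, 3 fell and none rose, with a median log2 ratio of -0.31. Oat, ornithine aminotransferase, had -4.32, -3.86, -3.83 and -2.88, a 13.2-fold decrease with rat 4 the least changed (limma adjusted p = 1.07e-09). Slc1a2, a glutamate transporter, had -2.64, -1.73, -1.95 and -1.90, a 4.16-fold decrease (limma adjusted p = 1.38e-11), and its other probe gave -0.99. Cyp1a2, described above, was the remaining call.

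Glul, glutamine synthetase, a defining gene of this zone, averaged -0.98 ± 0.26 (SD, n = 4), just under 2-fold. Cyp2e1 at 0.23 and the Wnt target Axin2 at -0.16 had not passed the adjusted p. Without rat 4, 5 of the 16 fell, and under median centring 8. In bulk liver RNA, fewer cells of a type and less RNA per cell cannot be told apart.

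Periportal genes, with gluconeogenesis and amino acid breakdown, had 2 decreases among 23 measured. Sds, serine dehydratase, had -1.0, -0.68, -2.45 and -1.46, and Tat, tyrosine aminotransferase, had -0.65, -0.81, -2.13 and -0.91. Rat 3 was the lowest for both genes, and Tat was not called without it. Under median centring 9 of the 23 fell. The list median was -0.306, and between -0.338 and -0.177 under the other compounds, where 0 to 5 genes were called lower and none higher.

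Genes that depend on growth hormone or differ between the sexes had 5 decreases and no increase among 30 measured, with a median log2 ratio of -0.18, and 12 decreases under median centring. Besides Cyp2c11 and Sult1e1 they were Dhrs7, Car3 and Socs2. Car3, carbonic anhydrase 3, abundant in male rat liver, had -1.99, -1.81, -1.55 and -1.24, a 3.13-fold decrease. Socs2, a feedback inhibitor of growth hormone signalling, had -1.78, -0.97, -0.93 and -1.32, a 2.38-fold decrease, and was not called without background correction. Dhrs7 fell by 1.74 on its brightest probe, while its other probe gave 0.43, and with both averaged it was not called (-0.66). Under the other compounds the median of this list was between -0.246 and -0.119. Between 1 and 5 of its genes were called lower there and between 0 and 4 higher.

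Igf1, the growth factor that growth hormone raises in liver, averaged -0.92 (limma adjusted p = 1.96e-08), under 2-fold. The major urinary protein genes Mup4l3 and Mup4l4, outside the list, belong to a family secreted by male rat liver. Mup4l3 had -2.58, -3.54, -1.48 and -1.41 and Mup4l4 had -2.15, -3.17, -1.30 and -1.03. Rat 2 was the lowest for both. Their probes were not tested for cross-signal between members of the family.

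Slc27a5, which activates bile acids for conjugation to amino acids, was the 1 call among 18 bile acid genes. It had -1.67, -1.57, -1.68 and -1.68, the smallest spread of the leading genes, a 3.14-fold decrease (limma adjusted p = 1.38e-11). Cyp7a1, the rate-limiting enzyme of bile acid synthesis, averaged 0.088 ± 0.67 (SD, n = 4, limma adjusted p = 0.863). Mme, the membrane peptidase neprilysin, had -1.96, -2.14, -2.0 and -2.13, with the 1,2-dichlorobenzene channel below background on all 4 arrays. After background correction its mean was at least 4.05-fold lower (limma adjusted p = 4.29e-10), at log2 signals of 6.80 with 1,2-dichlorobenzene and 8.86 in vehicle. Without background correction Mme was not called (-0.87), and the limit does not hold there. Sez6 fell 4.56-fold on its brightest probe, while its other probe gave -0.0069. Ppp1r3c, which targets a phosphatase to glycogen, and the kinase gene Sgk1 fell 2.76-fold and 2.84-fold, with all 4 rats below vehicle.

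Plasma proteins and apolipoproteins had 7 decreases and no increase among 39 measured, with a median log2 ratio of -0.57, and 35 were lower at the adjusted p alone. The 7 were Apoa4, Apoc3, Fetub, Apoa2, Serpina1, Ambp and C3. With the scanner ratio Fetub, Apoa2, Serpina1 and Ambp were at -0.82, -0.82, -0.78 and -0.66. Apoa4 had -1.45, -1.90, -1.80 and -1.24, a 3.03-fold decrease. Alb, albumin, averaged -0.57 ± 0.14 (SD, n = 4). These decreases came with high brightness. Of the 39 members 31 had a mean log2 signal of 16 or above, and the median ratio of all 56 tested genes at 17 or above was -0.58, against 0.075 for the 704 genes between 14 and 16.

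The plot of change against brightness shows this bend at its right end. The count of secreted genes called lower was 32 under median centring, 1 with the scanner software's own log ratio, and 2 with the series table or with the probes of a gene averaged. The list median under the other compounds was between -0.39 and -0.31, and the median difference of its members from the mean of the other 5 compounds was -0.15, with no gene called in either direction. At the adjusted p alone 15 of the 39 were lower in that difference and 1 higher. Of all genes 13.7% were lower there and 17.3% higher. The part of dye and brightness in the ratio against vehicle was not tested.

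**Figure D3:**
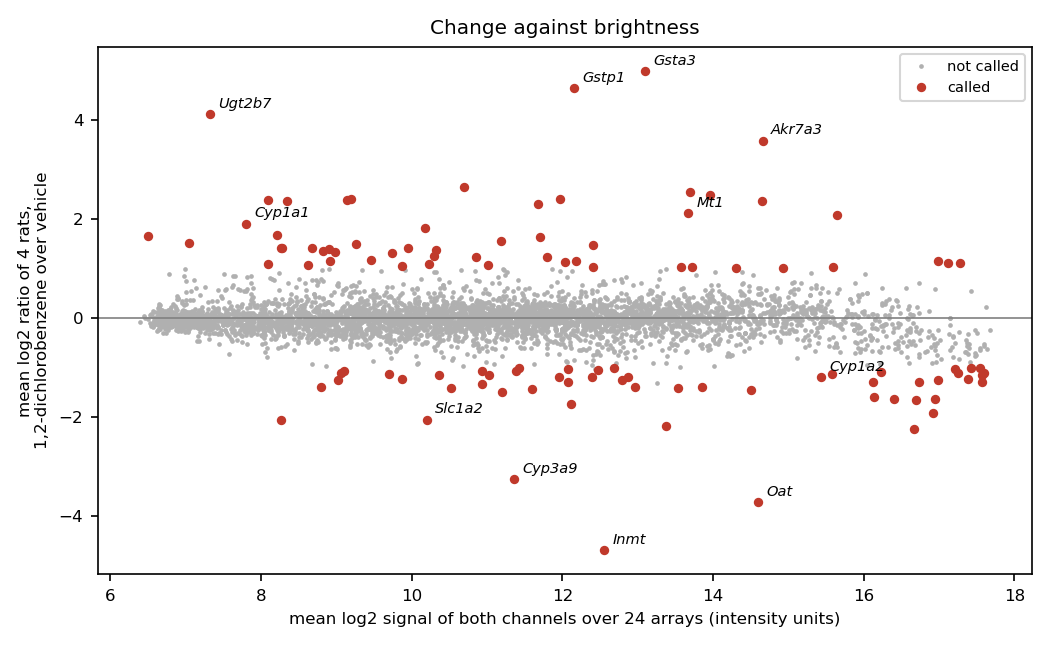
Mean log2 ratio of the 4 rats given 1,2-dichlorobenzene over vehicle (vertical axis) against mean log2 signal of both channels over 24 arrays (horizontal axis), for the 4752 tested genes with a usable symbol. Red points are the 109 called genes and grey points the rest; the grey points bend below 0 above a log2 signal of 16, while Gsta3, Gstp1, Inmt and Oat lie at middle brightness.

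Acute phase genes had 2 decreases among 26 measured, Hp and Itih4, with a median log2 ratio of -0.32, but neither was called with the scanner ratio or the series table, and 11 fell under median centring. None of 17 interferon response genes was called in limma, while 12 were lower at an unadjusted p under 0.05 and the median was -0.47. Of all 11589 genes, 6613 (57.1%) passed that unadjusted p, 3194 upward (27.6%) and 3419 downward (29.5%), which is the background for the counts at an unadjusted p given here and below. Under median centring 7 of the 17 interferon response genes were called lower. Mx2, an antiviral protein, was the lowest of the 17 against vehicle at -0.89. Against the mean of the other 5 compounds 1 of the 17 was called lower and none higher. At the adjusted p alone 8 were lower there, which 13.7% of all genes were. Against monuron 2 were called lower and none higher. At the adjusted p alone 8 were lower there and 1 higher, and 10.4% of all genes were lower. The list medians under the other compounds were between -0.152 and 0.177.

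In the remaining metabolic lists few genes moved. None of 19 cholesterol synthesis genes was called in limma (8 were higher at an unadjusted p under 0.05), with a median of 0.098. Fatty acid uptake and oxidation under PPARalpha had 3 increases among 27, Fgf21, Fabp2 and Cd36, with 1 increase in the list under median centring or without background correction. Fatty acid synthesis had 1 among 16, Me1. The thyroid list had Me1 higher and the transporter Slc16a10 lower among 11, and Slc16a10 was not called without background correction, with probes averaged or without rat 3. The clock list had 1 decrease among 14, Noct, whose rats ranged between -2.38 and -0.085 and which lost the call in 7 of 13 alternatives. No target of p53 among 17, no subunit of oxidative phosphorylation among 29 and none of the proteasome among 23 was called in limma. At an unadjusted p under 0.05, 4 p53 targets were higher and 5 lower, 15 oxidative phosphorylation genes higher and 3 lower, and 15 proteasome genes higher and 3 lower. The plot of the gene lists sets these groups side by side.

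**Figure D4:**
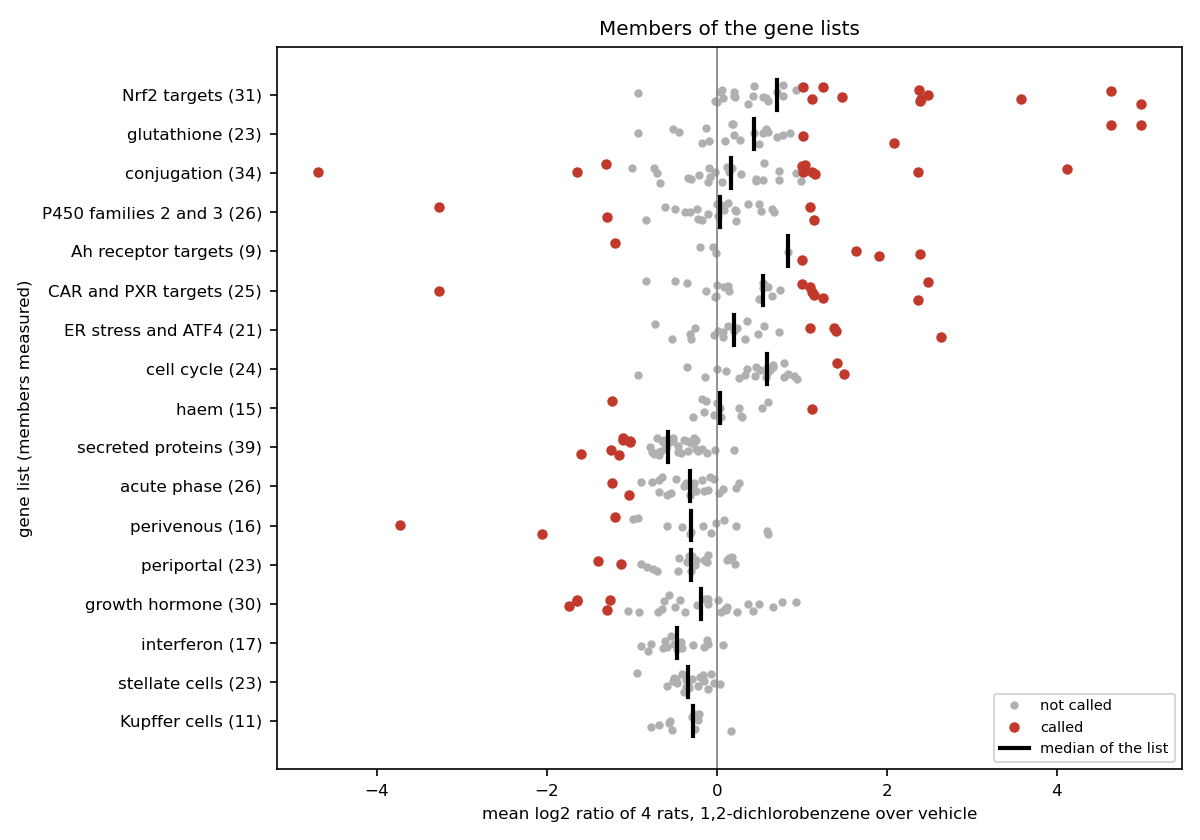
Mean log2 ratio of the 4 rats given 1,2-dichlorobenzene over vehicle (horizontal axis) for each measured member of 17 gene lists (rows, number measured in brackets). Red points are called genes, grey points are not called and black ticks are list medians; the Nrf2 median of 0.71 is among the highest and the secreted protein median of -0.57 the lowest. With arrays centred on their median the medians of the glutathione, conjugation, P450, CAR and PXR, ER stress and haem lists turned below 0.

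Markers of other liver cells were measured as a check on composition. Kupffer cell and macrophage markers had no call in limma among 11, with 9 lower at an unadjusted p under 0.05 and a summed signal of 59200 to 85600 with 1,2-dichlorobenzene and 98700 to 103000 in vehicle. Stellate cell and fibrosis genes had no call among 23, with 18 lower at an unadjusted p under 0.05 and a summed signal of 95100 to 107000 with 1,2-dichlorobenzene and 161000 to 166000 in vehicle. Of the 10 hepatocyte markers 2 fell, Tat and Serpina1. The summed signal of the 10 was likewise lower, 1160000 to 1240000 with 1,2-dichlorobenzene and 1830000 to 2000000 in vehicle. However, 8 of the 10 had a mean log2 signal of 16 or above, where the ratios of all tested genes bend below 0. Their median log2 ratio was -0.63, and between -0.633 and -0.361 under the other compounds.

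Endothelial markers summed to 31300 to 38200 with 1,2-dichlorobenzene and 33100 to 33700 in vehicle, with none of 6 called in limma and 1 higher at an unadjusted p under 0.05. Lymphocyte markers summed to 4570 to 4980 with 1,2-dichlorobenzene and 5650 to 5860 in vehicle, with none of 10 called and 5 lower at an unadjusted p under 0.05. Of 3 neutrophil markers none was called and 1 was lower at an unadjusted p under 0.05, and these were among the dimmest, at 403 to 452 with 1,2-dichlorobenzene and 444 to 460 in vehicle.

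Bile duct and progenitor markers had 1 increase among 15, the tight junction gene Cldn7 at 1.33, 1.10, 1.13 and 0.62, not called under median centring, without background correction or without rat 1, while the duct keratin Krt19 averaged -0.25. At an unadjusted p under 0.05, 7 of the 15 bile duct and progenitor markers were higher and 3 lower, with means from -1.32 for Onecut1 to 1.04 for Cldn7. Their summed signal was 104000 to 157000 with 1,2-dichlorobenzene and 109000 to 111000 in vehicle. Red cell genes had 1 increase among 7, Tfrc, and summed to 37500 to 56100 with 1,2-dichlorobenzene and 42900 to 43500 in vehicle. Of these 7, 2 were higher and 1 lower at an unadjusted p under 0.05. The single pancreatic gene measured, Cela1, averaged -0.66. The part of cell composition in the results was not tested.

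When set beside the mean of the other 5 compounds, a difference in which a shared dye effect cancels, 62 of 11589 genes (0.535%) were called, 34 higher (0.293%) and 28 lower (0.242%) with 1,2-dichlorobenzene. Doses differed between compounds. The comparisons of the corn oil compounds against vehicle may share control pools, whereas tetracycline hydrochloride had a water vehicle. Of the 186 genes called against vehicle, 55 were also called in the same direction here, and 137 passed the adjusted p in the same direction, which 31.0% of all genes passed in either direction (17.3% upward and 13.7% downward).

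The increases that stood farthest above the other compounds were Gstp1, with a difference of 4.12 (limma adjusted p = 1.18e-13), and Ugt2b7, with 3.68 (limma adjusted p = 2.51e-14). Ptgr1 stood 2.06 above, Akr7a3 1.97, Akr1b8 1.95, Phgdh 1.59 and Mt1 1.58. With 1,2,3-trichloropropane 4 of these 5 were also called higher against vehicle, Akr7a3 at 2.60, Mt1 at 2.0, Phgdh at 1.98 and Ptgr1 at 1.203. Akr1b8 was not called there, at 0.51. Akr7a3 was called higher with monuron (2.503) and 1-amino-2-methylanthraquinone (2.218) as well. Phgdh was also called higher with hexachloroethane (1.443), and Mt1 with 1-amino-2-methylanthraquinone (1.012). Ptgr1 was called with no further compound, and Akr1b8 with none of the other compounds. Gucy2c, the intestinal guanylin receptor, was also called higher, but its vehicle channel was below background on all 4 arrays, so the difference has no exact size. Against vehicle its mean after background correction was at least 2.02-fold higher. Without background correction Gucy2c was not called, with a ratio of 0.56 against vehicle.

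The deepest differences were Inmt at -3.44 (limma adjusted p = 4.43e-07), Oat at -2.24 and Cyp1a2 at -2.0 (limma adjusted p = 1.26e-08). Cyp1a2 averaged -1.19 with 1,2-dichlorobenzene, 2.46 with 1-amino-2-methylanthraquinone, 1.54 with monuron, 0.91 with hexachloroethane, -0.88 with 1,2,3-trichloropropane and -0.0021 with tetracycline hydrochloride. Slc1a2 stood 1.73 below on the log2 scale (-1.73), Cyp3a9 at -1.53, Slc13a3, a dicarboxylate transporter, at -1.45, and Sez6 at -1.26. Against vehicle Inmt, Oat, Slc1a2 and Cyp3a9 were at -4.69, -3.721, -2.055 and -3.261, farther from 0 than these differences. For these genes the mean of the other compounds was therefore below vehicle too. Mme was also called lower, but its 1,2-dichlorobenzene channel was below background, so the difference has no exact size. Sez6 (-0.56) and Mme were not called when probes of a gene were averaged, and Mme was not called without background correction or against the other corn oil compounds.

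Other leading genes stood closer to the other compounds. Grin2c, an NMDA receptor subunit, had a mean of 2.36 with 1,2-dichlorobenzene and of 3.30 to 3.81 with hexachloroethane, 1-amino-2-methylanthraquinone and monuron, a difference of 0.13 from the mean of all 5 (limma adjusted p = 0.623). Car3 had a difference of -0.022 (limma adjusted p = 0.953). Gsta3 averaged 4.99 with 1,2-dichlorobenzene, 5.25 with monuron and 4.58 with 1,2,3-trichloropropane, and stood 1.39 above the mean of all 5 (limma adjusted p = 0.00168). The heat map of the leading genes under the 6 compounds gives these means.

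Counted by list, 11 Nrf2 targets rose with 1,2-dichlorobenzene, 6 with hexachloroethane, 6 with 1,2,3-trichloropropane, 7 with 1-amino-2-methylanthraquinone, 6 with monuron and 1 with tetracycline hydrochloride. The counts of all genes called higher were 90, 55, 34, 145, 85 and 18 in the same order of compounds. In the direct difference from the mean of the other 5, 6 of the 31 were called higher and none lower. For the perivenous list 3 of 16 were called lower in that difference, Oat, Slc1a2 and Cyp1a2. Against vehicle 3 of the 16 were called lower with hexachloroethane as well, and 2 with 1-amino-2-methylanthraquinone. The count was 1 with 1,2,3-trichloropropane, 1 with monuron and 0 with tetracycline hydrochloride. With 1-amino-2-methylanthraquinone and with monuron 1 was called higher.

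Against monuron, scanned on the same day, 114 genes (0.984%) were called, 54 higher (0.466%) and 60 lower (0.518%) with 1,2-dichlorobenzene. The 5 genes farthest above monuron were Gstp1 (4.28), Ugt2b7 (3.95), Mt1 (2.45), Ptgr1 (2.18) and Phgdh (2.10). The 5 farthest below were Inmt (-4.45), Slc1a2 (-2.78), Cyp1a2 (-2.74), Oat (-2.58) and Acsm5 (-2.42). Acsm5, a medium-chain acyl-CoA synthetase, averaged 1.03 with 1,2-dichlorobenzene and 3.46 with monuron, and its call against vehicle was lost in 6 of 13 alternatives.

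Tfrc was 1.72 above monuron (limma adjusted p = 2.01e-06), at means of 1.12 with 1,2-dichlorobenzene and -0.60 with monuron. Aldh1a1 and Gpx2 differed from monuron by -0.12 each and Gsta3 by -0.27, none passing the test. Of the 186 genes called against vehicle, 87 passed the adjusted p in the same direction against monuron, which 23.9% of all genes passed in either direction (13.5% upward and 10.4% downward). Against the mean of the other 4 corn oil compounds, which leaves out tetracycline hydrochloride and its water vehicle, 51 genes (0.440%) were called, 27 higher (0.233%) and 24 lower (0.207%).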

How the data were processed

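Liver RNA of 24 rats was measured on 24 Agilent arrays with 2 dyes. The deposited scanner files hold, for each dye, a mean signal and a median background in linear intensity per the file headers, and the scanner software's log10 ratio per the file headers. The series table holds the authors' log2 ratio of treated over vehicle; set against the scanner's ratio of the same arrays it had a slope of 0.999 to 1.000 on 22 arrays, the 4 of 1,2-dichlorobenzene among them, 0.976 on monuron replicate 1 and 0.898 on tetracycline hydrochloride replicate 1, which settled its scale and direction. Signals were read with Agilent Feature Extraction 9.1.3.1, per the submitters' processing notes.

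Signals were background corrected (normexp, offset 50) and scaled by loess in limma 3.58.1 (R 4.3.3). Control and outlier spots were left out and copies of a probe averaged. Of 21900 probes 16085 were kept: for some compound, either channel exceeded background clearly on its 4 arrays. The brightest probe stood for a gene, and 3618 of 11589 genes had several. All 24 arrays were fitted with 1 mean for each compound (18 residual and 2.92 prior degrees of freedom), with Benjamini-Hochberg adjustment over all 11589 genes. The number of arrays limits the precision, and no depth applies to array signals. Nothing says that rats sharing a replicate number were paired. A lower bound on a fold sets the bright group's mean against the higher of the dim probe's signal and the lowest signal above background. It holds for the mean of background-corrected signals and not for each rat or setting.

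Probe names on the array were brought up to date with RefSeq GRCr8. A current symbol was found for 6195 probes, 1915 went through synonyms, 902 through a RefSeq accession and 621 through a numeric gene identifier. The design's own name stayed for 528, and 11739 were unnamed. Cyp2b1 and Cyp2b2 are not analysed here, and 1 member of the haem list is not reported here. The fit was tested on simulated data. The genes and the 36 lists were chosen with earlier results of these data known. Named genes are the 15 largest changes each way against vehicle, the 8 against the other 5 compounds and the 5 against monuron, and up to 6 called members of each list, with every called and up to 6 uncalled members of the P450, glutathione, conjugation, haem and Ah receptor lists; further list members were named after their values were seen. Alternatives changed scaling, background, filter, probe rule, source table, fold limit, arrays fitted, replicate block and rats left out.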

Additional observations from a re-analysis of the deposited data

Results flagged for a closer look

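In 6 of 100 named genes and 5 of 36 lists, 1 of the 4 rats given 1,2-dichlorobenzene stood apart from the other 3 by more than the 95% critical share of the range for 4 values; chance alone gives about 1 in 20. Rat 2 was highest for Cyp2c37 (1.463) and Cyp2c6v1 (1.396), related P450 genes, and least changed for Slc27a5 (-1.571), whose 4 values were otherwise nearly equal. Rat 4 was nearest to vehicle for the sulfotransferases Sult1b1 (0.3005) and Sult1a1 (-0.4559) and the transporter Slc16a10 (-0.5225).

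Among list medians, rat 4 was lowest for the aldehyde and aldo-keto reductase list (0.0461) and highest for red cell genes (0.336). Rat 3 was highest for the PPARalpha list (0.261) and for endothelial markers (0.118). Rat 1 was lowest for Kupffer cell markers (-0.644). The causes were not tested.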

How the results depend on the processing

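Against vehicle 186 genes were called; the count was 464 with median centring (63 higher and 401 lower, with the median of all genes at -0.209), 120 without background correction, 354 with the scanner's log ratio, 348 with the series table and 5992 with no fold limit. Of the 186, 152 were called under median centring. Against the other 5 compounds 62 were called, with 37, 142 and 133 under no background correction, the scanner ratio and the series table, and 53 under median centring (36 higher and 17 lower). Against monuron 114 were called, with 70, 221 and 211 under the same 3 settings. Leaving out 1 rat given 1,2-dichlorobenzene gave 168 to 238 genes against vehicle, 238 of them without rat 4, and 48 to 88 and 102 to 145 in the other contrasts. With a replicate block the counts were 186, 62 and 113; deviations of same-numbered rats from their compound means correlated at r = -0.26 to 0.28, at 0.057 to 0.28 for replicate 1, and not every pair was above 0.1. The labels state no pairing. Values of the 16 genes against the other 5 kept their side of the threshold in 203 of 208 cases and of the 10 against monuron in 170 of 170. Of 1300 values of named genes against vehicle, 1187 kept their sign and their side of the threshold, 82 lost the call, 10 gained it and 21 changed sign, all 21 in genes that were not called.

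Among genes that were not called, signs turned under median centring for Gsta5 (-0.09471), Gstm1 (-0.1805), Gsta1 (-0.2569), Gsta2 (-0.3674), Slc25a39 (-0.03739), Sult1b1 (-0.2848), Ugt2b15 (-0.2042), Urod (-0.2614), Ugt2b35 (-0.4833), Cyp2e1 (-0.6865), Cyp2c13 (-0.7506), Alad (-0.7362) and Arnt (0.05919). Alas1 was 0.08041 with the scanner ratio, 0.07758 with the series table and -0.3312 to 0.07183 with a rat left out, Ahr -0.04782 to 0.02564 with a rat left out, and Cyp2d5 0.03566 with the scanner ratio and 0.03198 with the series table. Median centring applies no curve over brightness, and under it the 56 genes at a log2 signal of 17 or above had a median of -1.47; other causes were not tested. Signal over background limits the dim genes: vehicle was below background for 5 called genes and the 1,2-dichlorobenzene channel for 2.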
